A study of Mus musculus with 15 samples.

Results

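The ROR and REV-ERB nuclear receptors were described through 4 mouse genes taken by their gene symbols from the 27179 genes of the count table. Rora encodes RORα, Nr1d1 encodes REV-ERBα, Nr1d2 encodes REV-ERBβ, and Nfil3 encodes a bZIP repressor that belongs to the same regulatory circuit but is not a nuclear receptor. The study measured polyadenylated RNA in mouse CD4 T cells that were activated and differentiated in culture, to compare Tfh (T follicular helper), Th17 and Th1 conditions in connection with TGF-β and the transcription factor c-Maf. There were 5 libraries each for Tfh, Th17 and Th1. Every library came from cells of the genotype B6.Cg-Ifngtm3.1Lky-Il17atm1.1Lky, whose altered Ifng and Il17a alleles are known as cytokine reporters, so no group here is free of them. In all groups naive CD4 cells were stimulated with antibodies to CD3 and CD28 bound to the plate, kept in culture for 3.5 days and sorted by flow cytometry. Tfh cells were sorted as CXCR5+ and IL-17A-negative and Th1 cells as IFNg+, whereas no source used here states the Th17 gate or the cytokines of each culture condition. The cells were made in vitro, and no label says whether the 5 libraries of a condition came from separate mice or cultures, so the p-values measure only the spread between these libraries, which may be technical.

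ROR and REV-ERB proteins bind the same short DNA element, AGGTCA with an A/T-rich stretch before it. RORα activates genes from it, and REV-ERBα and REV-ERBβ, whose ligand is heme, repress genes from it by recruiting the NCoR corepressor with the deacetylase HDAC3. In the circadian clock they act in opposite directions on Arntl (BMAL1) and on Nfil3, while BMAL1 with CLOCK activates the REV-ERB genes. NFIL3 in turn represses genes through the D-box, which the PAR bZIP factors DBP, TEF and HLF activate. In mouse T cells RORα contributes to the IL-17 programme, REV-ERBα has been placed between the clock and Th17 differentiation through NFIL3, and NFIL3 is needed for the development of natural killer cells and innate lymphoid cells.

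The genes differ widely in size and base composition, which matters for the counts reported below. On the RefSeq annotation of GRCm38.p6, Rora (gene ID 19883) covers chromosome 9 from 68653404 to 69388246 on the plus strand, a span of 734843 bp, and its transcript GC content is 40.9%. Nr1d1 (217166) covers chromosome 11 from 98767932 to 98775377 on the minus strand and has a transcript GC content of 56.8%. In the GENCODE M21 annotation its span overlaps that of Thra, the thyroid hormone receptor α gene on the opposite strand, over 1075 bp. Exons of both genes overlap there. Nr1d2 (353187) lies on chromosome 14 from 18204056 to 18239106, minus strand, with 41.8% GC, and Nfil3 (18030) on chromosome 13 from 52967209 to 52982878, minus strand, with 54.5% GC. Also in GENCODE M21, an antisense transcript, Gm15511, overlaps Rora over 15359 bp and has no count of its own here.

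RefSeq promoter windows of 300 bases, from 250 bases before to 50 after the start site, were found for 4 of 4 genes in the GRCm38.p6 table. They are shown for the genes whose window holds an element of the circuit, together with one window of Arntl, since these elements link the 4 genes to each other and to the clock. The table's start sites of Nfil3 and Rora lie inside their annotated spans, which begin further upstream. Arntl has a further window, chr7:113207215-113207514, which holds no match and is not shown. Capitals mark the match, and each sequence is written along its gene's own strand.
Nr1d1, chr11:98775328-98775627, minus strand: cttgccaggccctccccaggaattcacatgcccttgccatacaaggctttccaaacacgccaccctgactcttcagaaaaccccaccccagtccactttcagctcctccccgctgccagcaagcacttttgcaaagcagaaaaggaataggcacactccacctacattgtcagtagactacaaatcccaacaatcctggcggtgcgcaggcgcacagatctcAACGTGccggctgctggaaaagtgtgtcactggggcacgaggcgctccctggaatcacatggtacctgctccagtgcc
Nr1d2, chr14:18239057-18239356, minus strand: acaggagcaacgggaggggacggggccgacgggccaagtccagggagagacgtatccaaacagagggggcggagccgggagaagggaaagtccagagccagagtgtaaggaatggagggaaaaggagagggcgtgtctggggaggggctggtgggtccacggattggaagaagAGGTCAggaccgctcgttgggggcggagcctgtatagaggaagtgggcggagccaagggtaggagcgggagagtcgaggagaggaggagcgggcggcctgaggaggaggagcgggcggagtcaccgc
Nfil3, chr13:52980990-52981289, minus strand: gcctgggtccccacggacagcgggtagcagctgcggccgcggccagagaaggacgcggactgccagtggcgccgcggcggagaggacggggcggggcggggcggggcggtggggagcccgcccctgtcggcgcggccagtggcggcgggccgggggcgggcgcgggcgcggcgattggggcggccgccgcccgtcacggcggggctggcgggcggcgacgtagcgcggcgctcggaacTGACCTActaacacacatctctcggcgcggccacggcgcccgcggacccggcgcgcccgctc
Arntl, chr7:113207261-113207560, plus strand: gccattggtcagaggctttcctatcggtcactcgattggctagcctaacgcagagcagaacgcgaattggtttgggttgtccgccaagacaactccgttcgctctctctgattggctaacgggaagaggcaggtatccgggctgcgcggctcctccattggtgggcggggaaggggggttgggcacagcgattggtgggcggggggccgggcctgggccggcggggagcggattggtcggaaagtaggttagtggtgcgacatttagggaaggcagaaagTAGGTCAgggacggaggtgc

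The capitals in Nr1d1 (bases 223 to 228 of the window) are CACGTT, an E-box variant of the kind BMAL1 and CLOCK can bind, read on the opposite strand. Nr1d2 holds AGGTCA, the core of the ROR and REV-ERB element, at bases 174 to 179. Nfil3 holds TAGGTCA, the same core with the T that precedes it in many such elements, on the opposite strand at bases 239 to 245, and Arntl holds it on its own strand at bases 281 to 287. Searched on both strands among all 32851 promoter windows of the table, AGGTCA or GGGTCA occurred in 27.5%, TAGGTCA or TGGGTCA (a subset of these) in 6.45%, CACGTG in 7.15% and CACGTT in 4.68%. The D-box, as TTATGTAA, TTATGCAA, TTACGTAA or TTACATAA, occurred in 1.78% and was in none of the windows of the 4 genes, and the Rora window held none of these strings. A match is only a match of letters in this window.

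Library totals lay between 4871468 and 25200382 counts, with a median of 10501581. The first principal component, 58% of the variance, separated the conditions, and Tfh replicate 1, the shallowest library, stood apart from the other Tfh libraries on the second (94 against -1 to 12.1). All 4 CD4 T cell markers were detected in every condition, with summed levels of 3320 to 5220 CPM (counts relative to the TMM-scaled library total) in Tfh, 3080 to 3810 in Th17 and 1880 to 2910 in Th1. Among markers of natural killer and innate lymphoid cells, which express Rora and Nfil3, Ncr1 and Klra8 were at 0 in all libraries, and the list of 5 summed to 13.9 to 55.4 CPM in Tfh, 20.8 to 35.3 CPM in Th17 and 0 to 2.80 CPM in Th1. In Tfh and Th17 most of that sum was Klrb1f, at 31.8 ± 14.6 CPM in Tfh, 24.2 ± 6.31 CPM in Th17 and 0.456 ± 0.687 CPM in Th1 (SD, n = 5). Klre1, the largest part of the small Th1 sum, averaged 0.546 CPM in Tfh, 3.15 CPM in Th17 and 0.881 CPM in Th1. Klrb1f therefore moved with Rora, and its part in the Rora result was not tested. The 4 markers of gamma-delta T cells summed to 6.57 to 21.5 CPM in Tfh, 4.84 to 9.21 CPM in Th17 and 20.2 to 45.2 CPM in Th1, mostly from Trdc, with Trdv4 at 0 in all libraries, Sox13 at 0 in Tfh and Blk at 0 in Th1. The 2 CD8 genes summed to 5.22 to 11.3 CPM in Tfh, 6.19 to 16.0 CPM in Th17 and 7.29 to 26.1 CPM in Th1, with Cd8a at 0 in Tfh. The 7 myeloid and dendritic cell markers summed to 2.86 to 5.14 CPM in Tfh, 1.95 to 5.85 CPM in Th17 and 5.05 to 17.5 CPM in Th1, with Lyz2 and Itgax at 0 in Th1, Csf1r at 0 in Tfh and Lyz2, Itgam and Flt3 at 0 in Th17. These 3 lists reached their highest sums in Th1, as Nfil3 did. B cell markers summed to at most 2.59 CPM and erythroid markers to at most 0.398 CPM in any library. Markers of the named conditions were all detected, and the Tfh markers summed to 1170 to 1610 CPM in Tfh, 991 to 1270 CPM in Th17 and 141 to 175 CPM in Th1, so that on this list Tfh and Th17 libraries overlapped. The Th17 markers summed to 3670 to 5460 CPM in Tfh, 10700 to 12400 CPM in Th17 and 23.2 to 66.3 CPM in Th1. In Tfh and Th17 most of this was Il17f, at means of 4434 and 11250 CPM. The Th1 markers summed to 17.3 to 31.4 CPM in Tfh, 55.1 to 81.0 CPM in Th17 and 2440 to 2880 CPM in Th1. These lists include Cxcr5, Il17a and Ifng, genes of the stated gates.

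Rora, the gene of RORα, the activator of the ROR and REV-ERB element, was higher in Tfh and Th17 cells than in Th1 cells. Its difference between Tfh and Th17 did not pass. All levels here are of RNA, not of protein. Rora stood at 51.0, 75.6, 47.0, 43.9 and 99.4 CPM in Tfh replicates 1 to 5. In Th17 replicates 1 to 5 it stood at 82.4, 75.1, 60.2, 46.1 and 54.6 CPM. In Th1 replicates 1 to 5 it stood at 20.6, 16.0, 11.0, 12.5 and 16.0 CPM. All Tfh and Th17 libraries lay above all Th1 libraries, while the Tfh and Th17 libraries overlapped almost fully. In bulk RNA, fewer cells that express a gene and less RNA per cell cannot be told apart, which applies to every level here. Rora averaged 63.4 ± 23.7 CPM in Tfh, 63.7 ± 14.9 CPM in Th17 and 15.2 ± 3.72 CPM in Th1 (SD, n = 5). It was 4.19-fold higher in Tfh cells than in Th1 cells (log2 fold change 2.07 ± 0.25 SE, adjusted p = 1.36e-06 by edgeR's quasi-likelihood test over 12591 genes). In Th17 it was 4.21-fold higher than in Th1 (2.07 ± 0.25, adjusted p = 2.1e-06, edgeR). Between Tfh and Th17 the log2 difference was -0.01 ± 0.23 with an adjusted p of 0.992 (edgeR). Its 95% interval ran from -0.496 to 0.485 and so includes changes of some size in either direction.

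Nr1d1, the gene of the heme-binding repressor REV-ERBα, was also high in Tfh and Th17 cells. Nr1d1 measured 24.9, 21.5, 29.8, 26.2 and 38.7 CPM in the Tfh libraries. It measured 13.5, 15.1, 21.8, 24.2 and 22.5 CPM in the Th17 libraries and 3.50, 2.90, 6.65, 4.71 and 1.79 CPM in the Th1 libraries. The Th1 libraries were again the lowest without overlap, and the lowest Tfh library lay among the Th17 libraries. Its mean was 28.2 ± 6.59 CPM in Tfh, 19.4 ± 4.80 CPM in Th17 and 3.91 ± 1.86 CPM in Th1 (SD, n = 5). Nr1d1 was 7.07-fold higher in Tfh cells than in Th1 cells (log2 2.82 ± 0.30, adjusted p = 3.55e-07) and 4.86-fold higher in Th17 than in Th1 (2.28 ± 0.30, adjusted p = 6.58e-06), both by edgeR. The Tfh to Th17 difference of 0.54 ± 0.28 (95% interval -0.0406 to 1.12) did not pass (adjusted p = 0.206, edgeR). After a correction for transcript GC content it was 0.60 and passed (adjusted p = 0.0394, edgeR).

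No source used here states whether strand was used in the counting, so reads over the exons that Nr1d1 shares with Thra cannot be told apart. Thra itself averaged 9.87 ± 2.88 CPM in Tfh, 6.90 ± 3.67 CPM in Th17 and 9.02 ± 1.92 CPM in Th1 (SD, n = 5). It passed in none of the 3 comparisons, with log2 differences of 0.50 ± 0.34 between Tfh and Th17, 0.12 ± 0.34 between Tfh and Th1, and -0.38 ± 0.34 between Th17 and Th1 (adjusted p = 0.357, 0.796 and 0.409, edgeR). Thra was thus not low in the Th1 libraries, where Nr1d1 was low.

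Nr1d2, the gene of the other heme-binding repressor REV-ERBβ, was higher in Tfh than in Th1 cells and varied widely between libraries of one condition. Nr1d2 gave 21.5, 32.9, 34.9, 13.2 and 33.1 CPM in the Tfh libraries. It gave 17.3, 18.8, 14.8, 7.35 and 7.75 CPM in the Th17 libraries and 14.6, 7.25, 4.24, 3.87 and 3.66 CPM in the Th1 libraries. Tfh replicate 4 fell inside the Th17 range, and Th1 replicate 1 lay inside the Th17 and Tfh ranges, so every pair of conditions overlapped. Means were 27.1 ± 9.41 CPM in Tfh, 13.2 ± 5.37 CPM in Th17 and 6.72 ± 4.63 CPM in Th1 (SD, n = 5). The 4.13-fold higher level in Tfh than in Th1 passed (log2 2.05 ± 0.40, adjusted p = 0.00034, edgeR). The intermediate Th17 level did not pass against either side. The log2 difference was 1.04 ± 0.39 between Tfh and Th17 (95% interval 0.234 to 1.85, adjusted p = 0.0732, edgeR). It was 1.01 ± 0.40 between Th17 and Th1 (0.174 to 1.84, adjusted p = 0.0543), by edgeR. Both lie close to the threshold. The Tfh to Th17 difference passed in 2 of 15 fits with a library left out and under 6 of 10 other processing alternatives. The Th17 to Th1 difference passed in 4 of 15 and under 5 of 10. Without Tfh replicate 4 the Tfh to Th17 difference was 1.22 (adjusted p = 0.0389), and without Th1 replicate 1 the adjusted p was 0.0257. The Th17 to Th1 difference passed without Th1 replicate 1 (1.48, adjusted p = 0.00276), Th17 replicate 4 (adjusted p = 0.0376), Th17 replicate 5 (adjusted p = 0.048) or Tfh replicate 4 (adjusted p = 0.042).

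Nfil3, the gene of the D-box repressor NFIL3, ran the other way. Nfil3 was at 16.8, 13.7, 16.7, 21.2 and 16.2 CPM in the Tfh libraries. It was at 32.4, 45.0, 44.9, 47.6 and 48.1 CPM in the Th17 libraries and at 104.7, 117.1, 171.1, 159.8 and 108.7 CPM in the Th1 libraries. No library of one condition reached the range of another, so the ascending order Tfh, Th17, Th1 held library by library. Mean levels were 16.9 ± 2.71 CPM in Tfh, 43.6 ± 6.42 CPM in Th17 and 132 ± 30.9 CPM in Th1 (SD, n = 5). Nfil3 was 2.57-fold lower in Tfh than in Th17 (log2 -1.36 ± 0.18, adjusted p = 3.06e-05, edgeR) and 7.81-fold lower in Tfh than in Th1 (-2.96 ± 0.18, adjusted p = 1.86e-10, edgeR). It was 3.03-fold lower in Th17 than in Th1 (-1.60 ± 0.17, adjusted p = 5.89e-07, edgeR). It was the gene of the 4 that passed in every comparison. Trdc (15.1 CPM in Tfh, 6.46 CPM in Th17, 31.9 CPM in Th1), Cd8a (0, 0.259 and 5.52 CPM in the same order) and Cd68 (3.20, 3.04 and 10.7 CPM) were also highest in Th1, and their part in the Nfil3 result was not tested. Other genes of their lists did not follow them. Cd8b1, at 7.34, 10.28 and 11.45 CPM in that order, passed in no comparison (edgeR). Blk and Itgax were detected in Tfh and Th17 but were at 0 in Th1, and Lyz2 was at 0 in Th1.

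**Figure D1:**
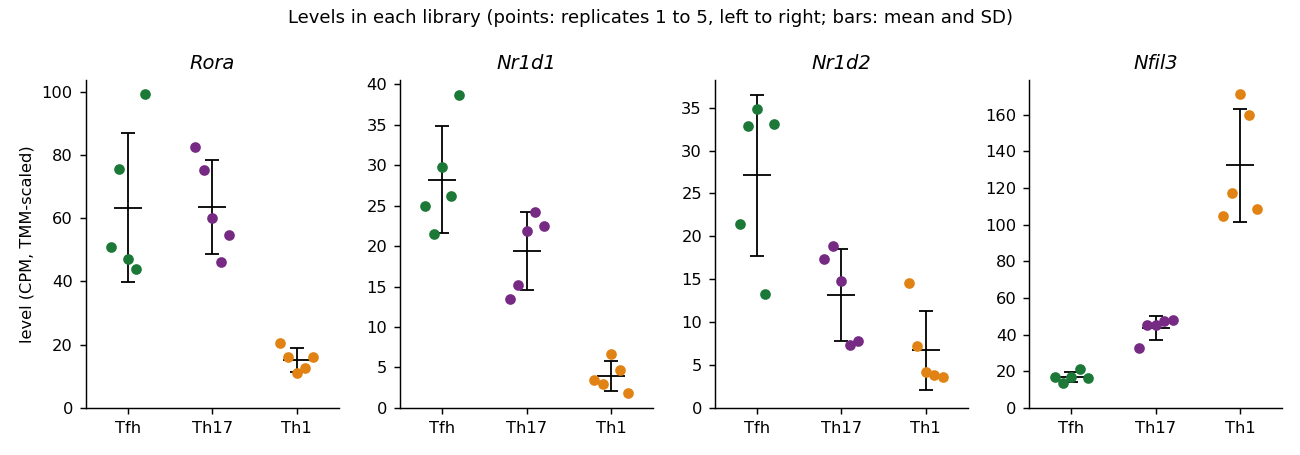
Level of Rora, Nr1d1, Nr1d2 and Nfil3 (y axis, CPM, TMM-scaled, from 0) in the Tfh, Th17 and Th1 libraries (x axis); points are replicates 1 to 5 and bars give the mean and SD. Rora and Nr1d1 are lowest in all 5 Th1 libraries, Nr1d2 overlaps between conditions, and Nfil3 is lowest in Tfh (13.7 to 21.2 CPM) and highest in Th1 (104.7 to 171.1 CPM).

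By comparison, 4 of the 4 genes passed between Tfh and Th1, 3 higher and 1 lower in Tfh, beside 49.3% of the 12591 genes tested (24.1% higher and 25.2% lower in Tfh). For 3 of the 4, Rora, Nr1d1 and Nfil3, the Tfh and Th1 libraries did not overlap, beside 34.3% of all genes. Between Th17 and Th1, 3 of 4 passed, Rora and Nr1d1 higher and Nfil3 lower in Th17, beside 36.9% of all genes (19.0% higher and 17.8% lower in Th17), and the same 3 did not overlap between the libraries, beside 28.8% of all genes. Between Tfh and Th17 only Nfil3 passed, lower in Tfh, beside 16.8% of all genes (6.80% higher and 9.98% lower in Tfh, or 856 and 1257 genes, but 1861 and 1592 with the GC correction), and only its libraries did not overlap, beside 14.5% of all genes. The median log2 difference of the 4 genes was 2.06 for Tfh against Th1, 1.54 for Th17 against Th1 and 0.27 for Tfh against Th17, where all genes had medians of -0.01, 0.03 and -0.01 in the same order of comparisons. The comparisons share libraries, so they are not independent of each other.

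**Figure D2:**
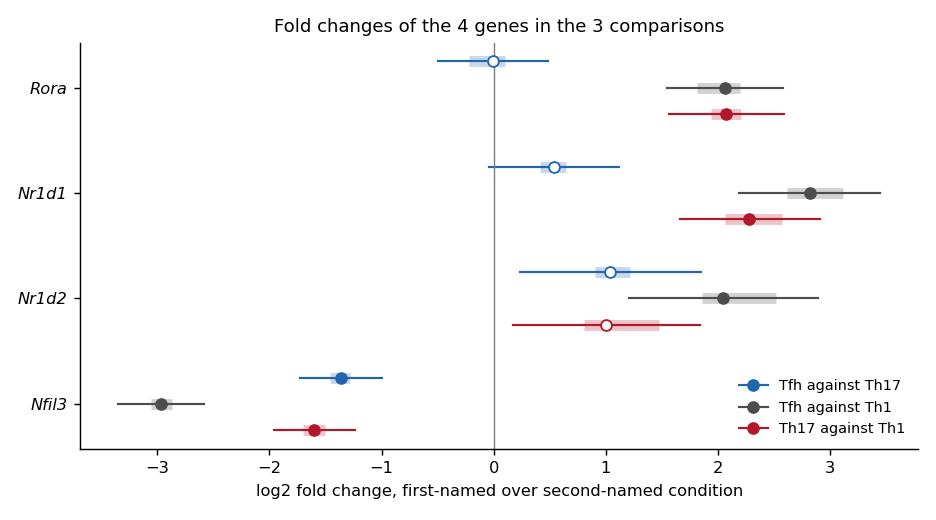
Log2 fold change (x axis, first-named over second-named condition) of each of the 4 genes (y axis) in the 3 comparisons; thin lines are 95% intervals, pale bands the span over all processing alternatives, and open circles differences with an adjusted p of 0.05 or more. Nfil3 lies below 0 in all 3 comparisons, Rora and Nr1d1 lie above 0 against Th1, and the Tfh to Th17 values of Rora, Nr1d1 and Nr1d2 are open.

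To compare the genes with one another, the CPM was divided by the length of each gene's merged exons. In Tfh the levels per kilobase were close together, at 9.17 ± 2.14 CPM for Nr1d1, 8.35 ± 1.34 for Nfil3, 5.01 ± 1.74 for Nr1d2 and 4.85 ± 1.81 for Rora (SD, n = 5). Th17 cells had 21.5 ± 3.17 CPM per kilobase of Nfil3, 6.31 ± 1.56 of Nr1d1, 4.87 ± 1.14 of Rora and 2.44 ± 0.992 of Nr1d2 (SD, n = 5). In Th1, Nfil3 reached 65.3 ± 15.2 CPM per kilobase, beside 1.27 ± 0.605 for Nr1d1, 1.24 ± 0.855 for Nr1d2 and 1.16 ± 0.284 for Rora (SD, n = 5). In Th1 the receptor genes were thus close to each other and far below Nfil3. Neighbours within about 1 SD of each other, such as Nr1d1 and Nfil3 in Tfh or the 3 receptors in Th1, have no settled order. When the longest single transcript was used as the length, Rora came above Nr1d2 in Tfh and Nr1d2 above Nr1d1 in Th1, with 5 of the 6 pairs of genes in the same order in each of these conditions.

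The balance of activator and repressor RNA was described as the log2 ratio of Rora to each REV-ERB gene per kilobase within a library. Rora relative to Nr1d1 was -0.98 ± 0.47 in Tfh (-1.44 to -0.295), -0.39 ± 0.70 in Th17 (-1.17 to 0.483) and -0.18 ± 0.88 in Th1 (-1.41 to 0.764), and the conditions overlapped. Rora relative to Nr1d2 was -0.05 ± 0.50 in Tfh (-0.849 to 0.419), 1.02 ± 0.35 in Th17 (0.695 to 1.47) and 0.01 ± 0.56 in Th1 (-0.788 to 0.715). All 5 Tfh libraries thus had less Rora per Nr1d2 than any Th17 library, and the lowest Th17 library lay within the Th1 range. These ratios are a description, without a test.

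**Figure D3:**
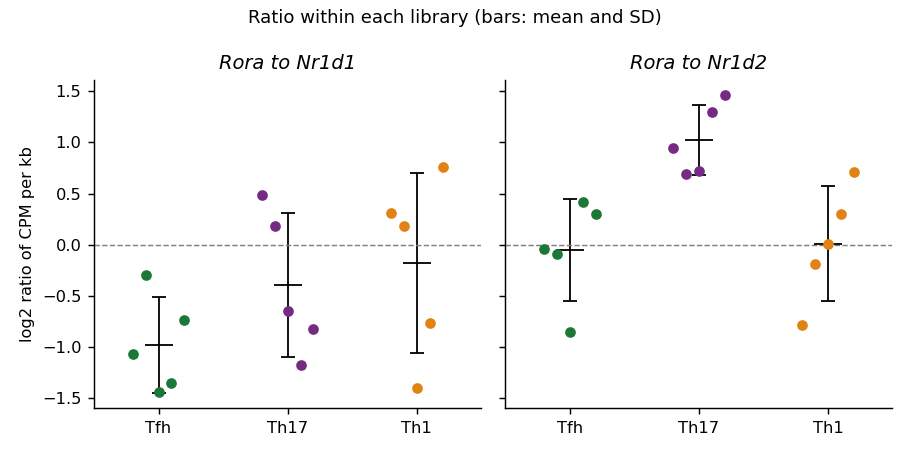
Log2 ratio of Rora to Nr1d1 and of Rora to Nr1d2 (y axis, from CPM per kilobase) in each Tfh, Th17 and Th1 library (x axis); points are replicates, bars the mean and SD, and the dashed line marks equal levels. The Rora to Nr1d2 ratio lies at or below 0.419 in every Tfh library and between 0.695 and 1.47 in Th17.

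Within a condition, part of the scatter of the 4 genes ran beside the base composition of the libraries. For each library, the rank correlation (rho) of a gene's deviation with transcript GC content over genes was -0.275 to 0.357 in Tfh, -0.379 to 0.528 in Th17 and -0.391 to 0.404 in Th1, where a positive value means that GC-rich transcripts were over-represented. Nr1d2, with low GC, was lowest in Tfh in replicate 4 (13.2 CPM, rho 0.357) and lowest in Th17 in replicates 4 and 5 (rho 0.528 and 0.192). Th1 replicate 1, whose Nr1d2 level of 14.6 CPM was about as high as in Th17, had the lowest rho of its condition, -0.391. The GC-rich Nfil3 showed the mirror image, with its lowest Th1 value (104.7 CPM) in that same replicate 1 and its highest (171.1 CPM) in replicate 3 (rho 0.404). The lowest Nr1d2 level of Th1 did not follow this direction: it was in replicate 5 (3.66 CPM), where rho was -0.165. Nfil3 differed between Th17 replicates 1 and 2 (32.4 and 45.0 CPM) at almost the same rho (-0.378 and -0.379). Nr1d1, also GC-rich, was highest in Th17 in replicate 4 (rho 0.528) and in Th1 in replicate 3 (rho 0.404). In Tfh, however, Nr1d1 was highest in replicate 5 (rho -0.068). With a GC correction in the fit, the log2 difference of Nr1d2 passed between Tfh and Th17 (1.13, adjusted p = 0.00337) and between Th17 and Th1 (0.96, adjusted p = 0.00764, edgeR), while the calls of Rora and Nfil3 stayed as they were. The SE of the Tfh to Th17 difference was 0.27 with the correction and 0.39 without it.

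**Figure D4:**
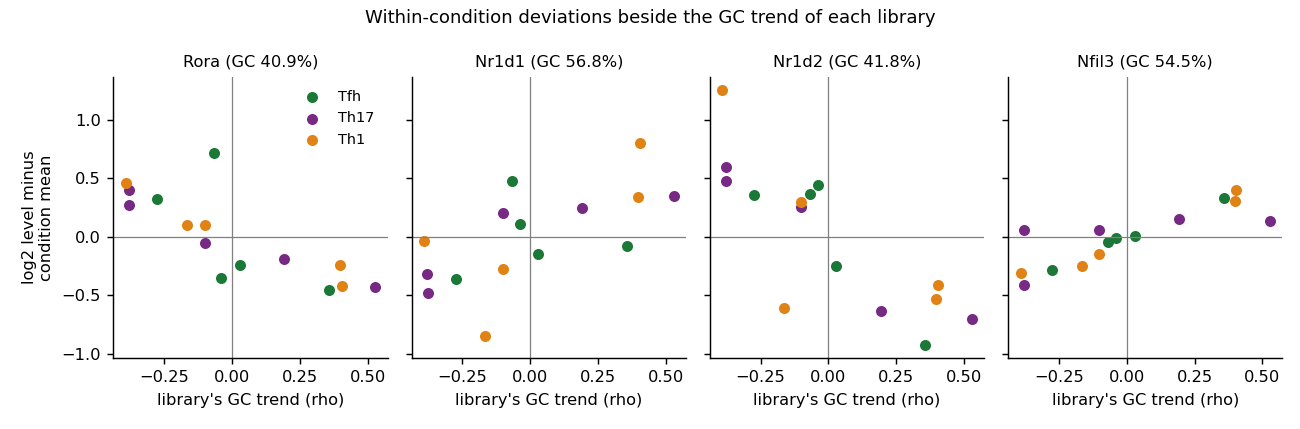
Deviation of each gene's log2 level from its condition mean (y axis) beside the library's GC trend (x axis, rank correlation with transcript GC content) for the 15 libraries, coloured by condition. Points of the low-GC genes Rora and Nr1d2 tend to lie lower at a positive GC trend, and those of the GC-rich gene Nfil3 higher. The GC-rich gene Nr1d1 is highest at the largest GC trend in Th17 and Th1 but not in Tfh.

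Among 8630 genes with a mean of at least 10 CPM, those whose profile over the 15 libraries was closest to each of the 4 genes were found by the root-mean-square difference of centred log2 levels. Nearest to Rora were Cd38, an NAD-consuming surface enzyme, at 0.244, Pgm2l1 at 0.25 and the collagen lysyl hydroxylase gene Plod2 at 0.281, where the spread of Rora itself was 1.01. Cux1 (0.305), Rnf208 (0.313) and the CREB coactivator gene Crtc3 (0.343) were nearest to Nr1d1, whose spread was 1.27. Zfp667 (0.315), Fam102b (0.334) and Tmx4 (0.358) were nearest to Nr1d2, with a spread of 1.03. Nfil3, with a spread of 1.21, was followed most closely by Gstt3 (0.194), by Bhlhe40 (0.219), a clock-linked bHLH repressor, and by Slco4a1 (0.239). Bhlhe40 reached 229 ± 42.8 CPM in Tfh, 650 ± 53.4 CPM in Th17 and 1521 ± 183 CPM in Th1 (SD, n = 5).

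The clock genes around the 4 genes did not move as one. Of 11 clock activators and repressors listed, 10 passed the filter on low counts. Of these, 2 were higher and 5 lower in Tfh than in Th1, 4 were higher and 3 lower in Th17 than in Th1, and 0 were higher and 3 lower in Tfh than in Th17. In the same order, 49.3%, 36.9% and 16.8% of all genes were called in either direction. The median log2 differences of the 10 clock genes were -0.76, -0.12 and -0.40 where all genes had -0.01, 0.03 and -0.01. Arntl, the gene of the activator BMAL1 and a textbook target of both RORα and the REV-ERBs, was at 61.9, 108.9, 96.8, 104.9 and 110.0 CPM in the Tfh libraries. It was at 69.9, 69.0, 77.8, 73.6 and 73.4 CPM in the Th17 libraries and at 11.4, 16.1, 10.9, 15.9 and 7.41 CPM in the Th1 libraries. It was 7.85-fold higher in Tfh cells than in Th1 cells (log2 2.97 ± 0.21, adjusted p = 1.05e-09, edgeR) and 5.91-fold higher in Th17 than in Th1 (2.56 ± 0.20, adjusted p = 1.05e-08, edgeR). Arntl was thus high in the conditions in which its activator gene Rora and its repressor gene Nr1d1 were higher than in Th1. Within a condition, neither Rora nor Nr1d1 nor its other repressor gene, Nr1d2, followed Arntl library by library. In Th17, Arntl lay between 69.0 and 77.8 CPM, Rora between 46.1 and 82.4 CPM and Nr1d1 between 13.5 and 24.2 CPM. In Th17 replicates 4 and 5, with Arntl at 73.6 and 73.4 CPM, Nr1d2 was at 7.35 and 7.75 CPM, inside its Th1 range. Both libraries had a positive GC trend (rho 0.528 and 0.192). Between Tfh and Th17 Arntl differed by 0.41 ± 0.19 (adjusted p = 0.159, edgeR), and without Tfh replicate 1 by 0.53, which passed (adjusted p = 0.0474).

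Clock, the partner of BMAL1, was 2.37-fold higher in Tfh cells than in Th1 cells (log2 1.24 ± 0.24, adjusted p = 0.000304) and 1.86-fold higher in Th17 than in Th1 (0.90 ± 0.24, adjusted p = 0.00626), by edgeR. The repressor genes were mostly at low counts. Per3 averaged 0.939 ± 0.708 CPM in Tfh, 2.03 ± 1.63 CPM in Th17 and 12.8 ± 1.61 CPM in Th1 (SD, n = 5). It was lower in Tfh than in Th1 (log2 -3.72 ± 0.61, adjusted p = 5.55e-05) and lower in Th17 than in Th1 (-2.66 ± 0.56, adjusted p = 0.00101, edgeR). Bhlhe40 was lower in all 3 comparisons, by log2 -1.50 ± 0.14 in Tfh against Th17, -2.73 ± 0.14 in Tfh against Th1 and -1.23 ± 0.14 in Th17 against Th1 (adjusted p = 8.68e-07, 1.64e-11 and 7.59e-07, edgeR), the same signs as Nfil3. Ciart was lower in Tfh than in Th17 (log2 -1.58 ± 0.28, adjusted p = 0.000569, edgeR). Other calls of the list lay nearer the threshold. Cry2 differed by log2 -0.96 in Tfh against Th1 (adjusted p = 0.0356) and Npas2 by -0.56 in Tfh against Th17 (adjusted p = 0.0382), by edgeR. In Th17 against Th1, Per1 differed by -0.72 and Cry1 by 0.64 (adjusted p = 0.0481 and 0.0241, edgeR). Cry2 lost its call without any one of 7 libraries (Tfh replicates 1, 2, 3 and 5 and Th1 replicates 2, 3 and 4), with adjusted p of 0.0534 to 0.0727. Npas2 lost it without any one of 9 libraries (Tfh replicates 1 to 4 and each Th17 replicate, 0.0523 to 0.101). The Cry1 call was lost without any one of 7 (Th17 replicates 1, 3 and 5 and Th1 replicates 2 to 5, 0.0514 to 0.0796), and that of Per1 without any one of 7 (Tfh replicates 1 and 4, Th17 replicates 1 to 3 and Th1 replicates 3 and 4, 0.0517 to 0.118).

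NFIL3 shares the D-box with the activators DBP, TEF and HLF, and Dbp was highest where Nfil3 was highest. Dbp stood at 17.4, 4.80, 8.41, 12.2 and 12.2 CPM in the Tfh libraries. It stood at 3.40, 3.28, 6.03, 7.26 and 6.10 CPM in the Th17 libraries and at 36.9, 48.4, 65.0, 50.9 and 28.5 CPM in the Th1 libraries. Every Th1 library lay above all others. The summed gamma-delta, CD8 and myeloid markers also reached their highest values in Th1, though not every gene of these lists did. Their part in the Dbp result was not tested. Dbp was 4.21-fold lower in Tfh than in Th1 (log2 -2.07 ± 0.31, adjusted p = 2.1e-05) and 8.75-fold lower in Th17 than in Th1 (-3.13 ± 0.33, adjusted p = 4.03e-07), by edgeR. Of the 3 D-box activator genes, 2 were lower in Tfh than in Th1 (Dbp and Tef), 2 were lower in Th17 than in Th1 (the same 2) and 1 was higher in Tfh than in Th17 (Dbp). Their median log2 differences were -1.19, -1.39 and 0.21. In these comparisons 49.3%, 36.9% and 16.8% of all genes were called in either direction. Dbp in Tfh against Th17 (1.06 ± 0.32, adjusted p = 0.0281, edgeR) lost its call without any one of Tfh replicates 1, 4 and 5 and Th17 replicates 1 and 2 (adjusted p of 0.0565 to 0.0801). Tef in Th17 against Th1 (-1.05 ± 0.38, adjusted p = 0.0344, edgeR) lost it without any one of Th17 replicates 1, 3 and 4 and Th1 replicates 3, 4 and 5 (0.0535 to 0.0882).

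**Figure D5:**
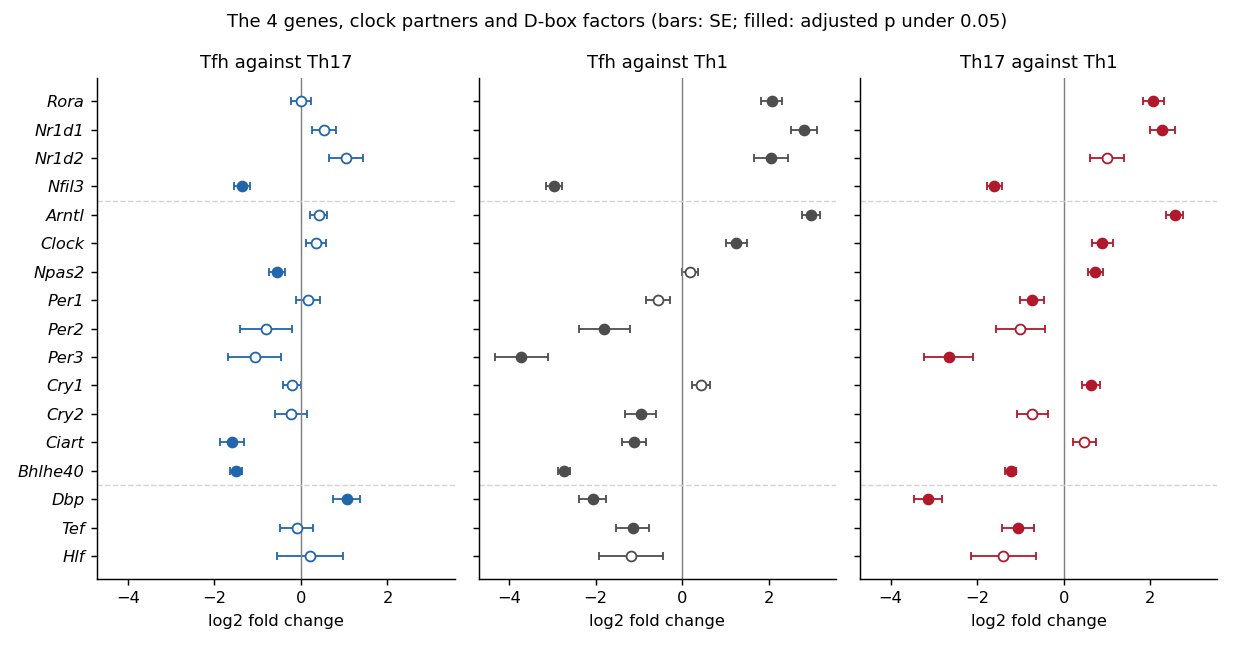
Log2 fold change (x axis) of the 4 genes, the clock genes and the D-box activator genes (y axis) in Tfh against Th17, Tfh against Th1 and Th17 against Th1; bars are the SE and filled points have an edgeR adjusted p under 0.05. Arntl and Clock lie on the same side as Rora and Nr1d1 in the comparisons with Th1, and Bhlhe40, Per3 and Dbp on the same side as Nfil3 in those comparisons.

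Cofactor genes of the receptors showed small differences. Of the 6 corepressor complex genes, 3 were higher in Tfh than in Th1, 2 in Th17 than in Th1 and 1 in Tfh than in Th17, and 0 were lower (median log2 differences 0.53, 0.36 and 0.18). In the same order 49.3%, 36.9% and 16.8% of all genes were called in either direction, so these counts were near the background. Ncor1, the scaffold that REV-ERB proteins recruit, averaged 724 ± 73.6 CPM in Tfh, 545 ± 20.8 CPM in Th17 and 423 ± 44.3 CPM in Th1 (SD, n = 5). It was 1.71-fold higher in Tfh cells than in Th1 cells (log2 0.78 ± 0.11, adjusted p = 7.37e-06, edgeR). Of 8 tested coactivator genes of 9, 6 were higher in Tfh than in Th1 and 2 in Th17 than in Th1, and 0 were lower (medians 0.70 and 0.33). Ncoa3 was 1.93-fold higher in Tfh cells than in Th1 cells (0.95 ± 0.13, adjusted p = 7.35e-06, edgeR). Between Tfh and Th17, 2 of the 8 were higher in Tfh, Ncoa1 and Ncoa2 (median 0.35), a count that became 1 or 0 without any one of Tfh replicates 4 and 5 and Th17 replicates 1, 2 and 4.

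Heme is the ligand of the REV-ERB proteins, and Cpox and Alad, which encode enzymes of its synthesis, differed in opposite directions between the conditions. Cpox, the coproporphyrinogen oxidase gene, averaged 315 ± 43.4 CPM in Tfh, 279 ± 47.6 CPM in Th17 and 34.6 ± 11.8 CPM in Th1 (SD, n = 5). It was 9.16-fold higher in Tfh and 8.11-fold higher in Th17 than in Th1 (adjusted p = 2.11e-10 and 6.7e-10, edgeR). Alad, of an earlier step of the same pathway, averaged 23.7 ± 4.39 CPM in Tfh, 36.8 ± 7.15 CPM in Th17 and 207 ± 74.0 CPM in Th1. It was 8.72-fold lower in Tfh and 5.64-fold lower in Th17 than in Th1 (adjusted p = 2.67e-09 and 5.96e-08, edgeR). Of the 12 heme genes, 2 were higher and 3 lower in Tfh than in Th1, 3 higher and 1 lower in Th17 than in Th1, and 0 higher and 1 lower in Tfh than in Th17. Beside the 49.3%, 36.9% and 16.8% of all genes called in these comparisons, the list as a whole was not called more often than genes at large. Its median log2 differences were -0.21, -0.02 and -0.11. The lower counts became 5, 3 and 2 without Th1 replicate 1, and single other libraries (Tfh replicates 2 to 5, Th17 replicates 3 and 4, Th1 replicates 3 and 5) also moved the counts of 1 to between 0 and 3.

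Sterols on the way to cholesterol are ligands of ROR proteins. Of 11 tested genes of the 12 listed for sterol synthesis after squalene, 7 were lower and 0 higher in Tfh than in Th17, 6 were lower and 0 higher in Tfh than in Th1, and 2 were lower and 3 higher in Th17 than in Th1 (medians -0.80, -0.45 and 0.03). Among all genes, 9.98% were lower and 6.80% higher in Tfh than in Th17. Between Tfh and Th1, 25.2% of all genes were lower and 24.1% higher in Tfh. Between Th17 and Th1, 17.8% were lower and 19.0% higher in Th17. Lss, lanosterol synthase, averaged 10.6 ± 2.99 CPM in Tfh, 33.0 ± 6.995 CPM in Th17 and 56.7 ± 4.84 CPM in Th1 (SD, n = 5). It was 3.09-fold lower in Tfh than in Th17 (log2 -1.63 ± 0.20, adjusted p = 1.49e-05) and 5.31-fold lower in Tfh than in Th1 (-2.41 ± 0.20, adjusted p = 1.25e-08), by edgeR. Without Th1 replicate 1, the count higher in Tfh than in Th1 became 1.

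Of 7 genes of the IL-17 programme, to which RORα is known to contribute, 6 passed the filter on low counts. Il17a is one of them, and since the Tfh cells were gated as IL-17A-negative, its level is no finding and it is left out here. Of the other 5, 5 were higher in Th17 than in Th1, and 4 were higher and 1 (Il23r) lower in Tfh than in Th1 (median log2 differences 6.10 and 6.98). Between Tfh and Th17, Il1r1 was higher in Tfh and Il17f, Il23r and Ccl20 were lower, with a median over the 5 of -1.34. Among all genes, 36.9% were called between Th17 and Th1, 49.3% between Tfh and Th1 and 16.8% between Tfh and Th17. Ccl20, at 0.875 CPM in Th1, passed the filter only through Tfh and Th17, so its direction against Th1 was fixed. The IL-17A-negative gate of the Tfh cells may also bear on these genes of the same programme, and its part was not tested. Ccl20, the ligand of CCR6, averaged 116 ± 34.2 CPM in Tfh, 531 ± 245 CPM in Th17 and 0.875 ± 0.418 CPM in Th1 (SD, n = 5). It was 4.56-fold lower in Tfh than in Th17 (log2 -2.19 ± 0.29, adjusted p = 3.87e-05, edgeR). Il1r1, the interleukin-1 receptor gene, was 1.84-fold higher in Tfh than in Th17 (0.88 ± 0.15, adjusted p = 0.000422, edgeR), at 228 ± 43.9 CPM in Tfh and 124 ± 3.07 in Th17.

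Genes reported to respond to NFIL3 in T cells were found on both sides. Of 7 tested of 10 such genes, 4 were higher and 3 lower in Tfh than in Th1, 4 higher and 3 lower in Th17 than in Th1, and 2 higher and 0 lower in Tfh than in Th17 (medians 2.49, 1.95 and 0.86). Among all genes, 49.3%, 36.9% and 16.8% were called in either direction in these comparisons, in the same order. The 3 lower genes, Il3, Havcr2 and Eomes, were near 0 in Tfh and Th17 and passed the filter only through Th1. Eomes averaged 0.264 CPM in Tfh, 0.12 CPM in Th17 and 4.50 CPM in Th1. Foxp3, at 0.483 CPM in Th1, passed only through Tfh and Th17. Their directions against Th1 were fixed by this, so the counts against Th1 cannot be read beside the shares of all genes. Il3, which NFIL3 activates in human T cells, had 1 count over all Tfh libraries and 5 over all Th17 libraries, and averaged 113.5 ± 17.3 CPM in Th1 (SD, n = 5), where Nfil3 was highest. Havcr2, the TIM-3 gene, had 0 counts over all Tfh and all Th17 libraries and averaged 5.24 ± 2.09 CPM in Th1. Il10, by contrast, averaged 20.5 ± 5.01 CPM in Tfh, 9.29 ± 2.27 CPM in Th17 and 1.95 ± 0.998 CPM in Th1. It was 2.22-fold higher in Tfh than in Th17 (log2 1.15 ± 0.29, adjusted p = 0.00969, edgeR) and 10.5-fold higher in Tfh than in Th1 (3.39 ± 0.32, adjusted p = 7.82e-08, edgeR). Tox, Id2 and Foxp3 also ran opposite to Nfil3 against Th1. They were 9.22-fold, 5.61-fold and 23.7-fold higher in Tfh than in Th1 (adjusted p = 1.47e-09, 2.53e-08 and 1.43e-05, edgeR).

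Against the rest of the nuclear receptor family, 19 of 44 other receptor genes passed the filter on low counts. Of the 19, 3 were higher and 5 lower in Tfh than in Th1, 2 higher and 5 lower in Th17 than in Th1, and 1 higher and 2 lower in Tfh than in Th17 (medians -0.06, -0.32 and 0.11). These counts are near the background of 49.3%, 36.9% and 16.8% of all genes called. Pparg was among the lower genes in each comparison, at 0 CPM in Tfh, 0.666 CPM in Th17 and 6.51 CPM in Th1. It passed the filter only through Th1. Rorb, which encodes RORβ, had 0 counts over the Tfh, 4 over the Th17 and 1 over the Th1 libraries. Nr4a2, an orphan receptor induced by T cell receptor signals, had the same signs as Nfil3. It averaged 11.7 ± 1.55 CPM in Tfh, 36.7 ± 4.61 CPM in Th17 and 71.4 ± 12.8 CPM in Th1 (SD, n = 5) and was 3.13-fold lower in Tfh than in Th17 and 6.10-fold lower in Tfh than in Th1 (adjusted p = 1.82e-06 and 2.44e-10, edgeR). The higher count of 1 between Tfh and Th17 rests on Nr2c2 and became 0 without any one of Tfh replicates 3 to 5 and Th17 replicates 1 to 4. The 2 higher between Th17 and Th1 became 1 or 0 without any one of Th17 replicates 4 and 5 and Th1 replicates 1, 2 and 5.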

How the data were processed

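The authors deposited raw counts per gene, as 1 table of 15 libraries keyed by NCBI gene ID and 1 file per library that holds the same values. Per the labels' protocols, libraries were made with the SENSE mRNA-Seq kit from 100 ng RNA; per the submitters' processing notes, STAR 2.7.2b, featureCounts 1.6.4 and mm10 were used, while no source used here states the annotation, strand setting or treatment of multi-mapping reads. Of 27179 IDs, 25275 were named from RefSeq GRCm38.p6 and 18 from GENCODE M21.

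Counts were tested with edgeR 4.0.16 (R 4.3.3): TMM factors, the default expression filter (12591 genes left), quasi-likelihood F-tests in 1 fit of all 15 libraries, Benjamini-Hochberg adjustment over all genes and a threshold of 0.05. CPM are TMM-scaled. The alternatives were other scaling, no filter, a filter of 50 counts, DESeq2 1.42.0, limma-voom 3.58.1, a fit of only the compared conditions, a replicate block, a GC correction (loess, span 0.3) and each library left out. Scripts were tested on simulated data. The 4 genes and the gene lists were chosen with earlier results of these data known. From each list, up to 2 called genes per direction and comparison with the largest change and at least 10 CPM in the higher condition could be named, with the 3 genes closest to each of the 4 over the libraries. Havcr2, Eomes, Pparg, Rorb, Npas2, Per1, Cry1 and Cry2 were named after their values were seen.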

Additional observations from a re-analysis of the deposited data

Results flagged for a closer look

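In 13 of 144 groups of 5 libraries, 1 library stood apart from the others by a gap above 0.71 of the range, where chance gives about 1 in 20. Nfil3 was at 32.4 CPM in Th17 replicate 1, against 44.9 to 48.1 CPM in the other Th17 libraries. Among the clock and D-box genes, Arntl was at 61.9 CPM in Tfh replicate 1 (others 96.8 to 110), Ciart at 18.8 CPM in Th17 replicate 4 (others 11.2 to 12.2), Cry2 at 3.28 CPM in Th17 replicate 1 (others 6.78 to 7.73) and Hlf at 5.11 CPM in Th1 replicate 5 (others 1.94 to 2.67). Of the cofactor genes, Ncoa2 was at 153 CPM in Tfh replicate 1 (others 208 to 215) and at 91.1 CPM in Th1 replicate 1 (others 107 to 113), and Ncoa1 at 139 CPM in Tfh replicate 5 (others 108 to 117). Cpox was at 55.5 CPM in Th1 replicate 1 (others 26.8 to 31.0) and Alad at 49.2 CPM in Th17 replicate 4 (others 31.1 to 35.3). Id2 was at 171 CPM in Tfh replicate 1 (others 344 to 411), Rara at 117 CPM in Tfh replicate 4 (others 71.6 to 80.9), and Il3 at 0.0988 CPM, a single count, in Tfh replicate 5, where the other Tfh libraries had 0.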

How the results depend on the processing

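No called difference of a named gene changed sign. The calls of Rora and Nfil3 held under all 25 alternatives. Nr1d1 passed between Tfh and Th17 with a GC correction (0.60, adjusted p = 0.0394) and with a GC correction plus replicate block (0.59, 0.0324). Nr1d2 between Tfh and Th17 passed with DESeq2 (1.06, 0.0339), limma-voom (1.10, 0.0301), only those conditions (1.06, 0.0238), a replicate block (1.12, 0.00923), the GC correction (1.13, 0.00337) and both (1.17, 0.000515), and ranged from 0.90 to 1.22 with single libraries left out. Between Th17 and Th1 it passed with library size only (1.03, 0.0442), limma-voom (1.21, 0.0274), the replicate block (1.04, 0.00958), the GC correction (0.96, 0.00764) and both (0.99, 0.00187), and ranged from 0.80 to 1.48 with single libraries left out. Called genes between Tfh and Th17 numbered 3453 (1861 higher, 1592 lower) with the GC correction and 4009 with both, beside 2113 (856 higher, 1257 lower), so the larger direction turned, and 1613 to 2393 with single libraries left out. Between Th17 and Th1 (2397 higher, 2245 lower) the larger direction turned under 15 of 25 alternatives, 8 of them with a library left out, as with RLE factors (2093 and 2452), and between Tfh and Th1 (3037 and 3169) with library size only (3305 and 2931). With the longest transcript, 5 of 6 pairs kept their order per kilobase in Tfh and in Th1. The causes were not tested. Replicate numbers did not meet the criterion for pairing, a correlation of deviations above 0.1 in every same-numbered pair: values ran from -0.102 to 0.57, with 7 of 15 above 0.1, among them all 3 pairs of replicate 2 (0.129 to 0.226) and of replicate 4 (0.444 to 0.57), and 5 of 15 libraries were closest to their own number; the block gave 2941 calls between Tfh and Th17. Of 2368 values for named list genes, 80 lost and 17 gained a call, and 84 of 1350 list counts moved over 1.5 times. At this depth Rorb (0, 4 and 1 counts in Tfh, Th17 and Th1) could not be tested.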
